A study of Mus musculus with 11 samples.

Results

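The peroxisomal fatty acid oxidation genes comprised Acaa1a, Acaa1b, Acox2, Ehhadh, Hsd17b4, Scp2, Crot, Decr2 and Abcd2. They were chosen by symbol, taking for each gene the sense transcript marked as its representative, and all 9 were found among 29955 gene symbols. RNA-seq was performed in 11 samples of im-scWAT, preadipocytes of mouse inguinal subcutaneous fat immortalized with SV40 large T antigen. A time course of 6 samples held 1 sample for each of days 0, 4 and 8 with and without rosiglitazone (ROS), a PPARγ ligand given at 0.5 μM that turns these cells into beige rather than white adipocytes. Differentiation was induced at day 0 with indomethacin, dexamethasone, IBMX, insulin and T3, and ROS was first added with this medium, so the 2 day 0 samples were treated as 1 group. The other 5 samples were taken at day 8 of differentiation with ROS. In these, endogenous mouse Jmjd1a was targeted by a retroviral shRNA, and human JMJD1A, an H3K9 demethylase, was put back from a second retrovirus under its own LTR promoter. Of these, 2 samples (WT A and WT B) carried WT-hJMJD1A. A single sample each carried S265A, which cannot be phosphorylated at that serine, S265D, which mimics the phosphorylated form, and S265D-H1120Y, which lacks the catalytic histidine besides. The transduced cells were selected pools, and the labels and the paper describe the withdrawal of ROS near the end of differentiation differently.

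Peroxisomes shorten very long chain, branched and dicarboxylic fatty acids that mitochondria handle poorly. An ABC transporter such as Abcd2 brings in the acyl-CoA, an oxidase desaturates it and releases hydrogen peroxide, a bifunctional enzyme hydrates and dehydrogenates the product, and a thiolase cleaves off acetyl-CoA or propionyl-CoA. Shortened chains leave as carnitine esters or free acids, and in rodent liver several genes of the route, Ehhadh and Acaa1b among them, are classical targets of PPARα, whose relative PPARγ drives fat cell formation.

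Acaa1a and Acaa1b, the thiolases for straight chains, are near-identical neighbours and are shown at sequence level because their values with and without ROS differed widely at day 8 while part of their reads cannot be told apart. In mm9, Acaa1a lies at chr9:119250412-119259413 on the plus strand and Acaa1b at chr9:119057161-119066211 on the minus strand, each with 12 exons in the annotation. Their coding sequences are both 1275 bases long and differ at 44 positions, an identity of 96.6%, and the longest identical stretch is 327 bases. Of all 100-base windows of the Acaa1b transcript, 22.6% also occur in Acaa1a, and of those of Acaa1a, 21.7% occur in Acaa1b. With 50-base windows the shares were 35.5% and 34.1%. How the realignment shared out reads from such windows is not stated. The 120 coding bases with the most differences, bases 433 to 552 counted from the start codon, hold 14 of them, marked in capitals.
Acaa1a: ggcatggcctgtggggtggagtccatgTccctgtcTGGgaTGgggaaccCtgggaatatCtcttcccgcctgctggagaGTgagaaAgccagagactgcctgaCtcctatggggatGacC
Acaa1b: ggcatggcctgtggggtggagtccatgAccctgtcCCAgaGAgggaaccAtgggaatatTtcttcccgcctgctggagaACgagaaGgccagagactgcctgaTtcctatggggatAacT

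The promoters of these thiolases and of Ehhadh, the other gene with a large response to ROS, are shown as the 250 bases before the start of transcription, from RefSeq on GRCm38.p6. They lie at chr9:119341044-119341293 on the plus strand for Acaa1a, chr9:119157094-119157343 on the minus strand for Acaa1b and chr16:21787835-21788084 on the minus strand for Ehhadh. Capitals mark CCAAT or its reverse complement ATTGG.
Acaa1a: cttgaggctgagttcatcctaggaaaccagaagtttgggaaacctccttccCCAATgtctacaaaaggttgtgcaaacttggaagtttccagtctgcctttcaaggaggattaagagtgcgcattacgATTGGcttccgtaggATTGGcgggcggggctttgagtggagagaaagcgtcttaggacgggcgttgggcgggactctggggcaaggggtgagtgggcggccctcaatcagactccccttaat
Acaa1b: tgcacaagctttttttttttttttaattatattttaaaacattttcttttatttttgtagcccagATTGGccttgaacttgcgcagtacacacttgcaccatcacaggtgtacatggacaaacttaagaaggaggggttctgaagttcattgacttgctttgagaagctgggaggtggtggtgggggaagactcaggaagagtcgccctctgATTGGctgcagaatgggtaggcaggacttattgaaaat
Ehhadh: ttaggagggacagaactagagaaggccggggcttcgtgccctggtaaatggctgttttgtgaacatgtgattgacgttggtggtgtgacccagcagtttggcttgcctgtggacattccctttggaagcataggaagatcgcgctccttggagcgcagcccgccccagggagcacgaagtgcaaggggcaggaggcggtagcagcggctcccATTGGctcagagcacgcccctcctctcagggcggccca

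Both strands were searched for 4 motifs. CCAAT occurred 3 times in the Acaa1a window, 2 times in that of Acaa1b and 1 time in that of Ehhadh, and 33.8% of 32851 RefSeq promoter windows of this length held it. GGGCGG, the GC box, occurred 3 times for Acaa1a, 2 times for Ehhadh and 0 times for Acaa1b, against 32.7% of windows with at least 1. The GC content of the windows was 53.6% for Acaa1a, 41.6% for Acaa1b and 60.4% for Ehhadh. AGGTCA, a nuclear receptor motif, was absent from these 3 windows and was present in 14.0% of all windows. The direct repeat of AGGTCA with 1 base between is the consensus element of PPAR and RXR, and each match to it also matches AGGTCA. It was in none of these 3 windows and in 11 of all windows (0.0335%). At that rate its absence from 3 windows tells nothing about PPAR binding, and inexact or more distant matches were not searched. The RefSeq table held promoters for 7 of the 9 genes, and Abcd2 and Hsd17b4 were not among them.

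The data cover 3.10 to 5.29 Gb of mapped bases per sample. Kdm3a, the mouse gene for Jmjd1a, had an FPKM (fragments scaled to transcript length and library size) of 13.0 to 28.5 in the 5 transduced samples against 15.1 to 23.2 in the 6 others, so no fall was visible in these values. Reads of the human JMJD1A cDNA may have been assigned to Kdm3a, so that its FPKM does not measure the knockdown, and directions below are those of the library labelled as such. Of 10 adipocyte markers, all 10 rose by days 4 and 8. The macrophage genes Ptprc and Emr1 and the muscle genes Myod1, Myog and Ckm were listed at 0 in all 11 samples, and the 4 endothelial and 4 epithelial markers summed to at most 4.01 and 0.839 FPKM. The 6 macrophage or leukocyte markers summed to 0.602 to 4.43 FPKM in the time course and to 5.13 to 21.95 in the transduced samples, most of it from Cd68, a lysosomal protein that other cells also express.

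At day 0 the genes spanned more than 3 orders of magnitude in level per length. Scp2 was the highest member at 38.1 ± 3.50 FPKM (SD, n = 2), followed by Acaa1a at 21.5 ± 1.07, Hsd17b4 at 20.5 ± 0.706, Crot at 10.7 ± 1.05 and Decr2 at 9.62 ± 0.618. Acaa1a and Hsd17b4, and likewise Crot and Decr2, did not differ beyond their spread. The remaining 4 were low, with Acaa1b at 2.21 ± 0.263, Abcd2 at 0.493 ± 0.0291, Ehhadh at 0.280 ± 0.0242 and Acox2 at 0.00829 ± 0.0117 FPKM. On the log2(FPKM + 0.1) scale the 2 day 0 samples stayed within 2-fold of each other for every member, while 1.98% of 16400 genes did not. Acox2, listed at 0 in 1 of them, is too low for this to say much.

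Differentiation raised most of the route. By day 8, 6 of 9 members rose against day 0 by limma at an adjusted p under 0.05, and the median member was 2.04 higher on the log2(FPKM + 0.1) scale, against a median of -0.03 over all genes tested. Among all 16400 genes, 23.6% were called higher and 22% lower by the same test, and none of the members was called lower. The 6 genes span import, oxidation, both bifunctional enzymes and thiolysis, whereas Acaa1b, Decr2 and Crot did not pass. The test used day as its only term, so the ROS difference within a day counted as spread.

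Abcd2, which imports very long chain acyl-CoAs (chr15:90976302-91022238, minus strand), had an FPKM of 0.472 and 0.513 in the day 0 samples. It reached 1.01 with and 1.30 without ROS at day 4, and 2.42 with and 2.26 without ROS at day 8. The 3 days did not overlap, and the rise at day 8 was 4.11-fold (log2 difference 2.04 ± 0.17, SE, limma adjusted p = 0.00147).

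Acox2, the oxidase for branched chains and bile acid precursors (chr14:9058025-9091533, minus strand), was listed at 0 in 1 day 0 sample and at 0.0166 in the other. At day 4 it stood at 1.07 with and 0.624 without ROS, and at day 8 at 4.14 with and 4.48 without ROS. It rose at both days, by 3.09 and then 5.35 ± 0.26 on the log2 scale (limma adjusted p = 0.000361 at day 8). Because the day 0 level is near 0, the size depends on the pseudocount, being 2.40 with a pseudocount of 1 and 8.05 with 0.01. A further transcript in the files for this gene had 103 to 107% of the representative's FPKM in samples above 0.1, so its pattern over the samples was alike in both.

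Ehhadh, the L-bifunctional enzyme (chr16:21761358-21787907, minus strand), had an FPKM of 0.297 and 0.263 at day 0, 6.12 with and 5.08 without ROS at day 4, and 22.2 with and 4.47 without ROS at day 8. It was thus close in both day 4 samples and in the day 8 sample without ROS, and highest in the day 8 sample with ROS. The change at day 8 was 26.6-fold (log2 difference 4.73 ± 0.72, limma adjusted p = 0.00711), and that at day 4 was 15.0-fold (limma adjusted p = 0.0145).

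Hsd17b4, the D-bifunctional protein and the main hydratase for branched chains, was at 20.0 and 21.0 FPKM at day 0, 89.9 with and 74.9 without ROS at day 4, and 103 with and 53.1 without ROS at day 8. All later values lay above both day 0 samples, and the day 8 value without ROS lay below both of day 4. The rise at day 8 was 3.60-fold (log2 difference 1.85 ± 0.33, limma adjusted p = 0.0110).

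The thiolases separated. Acaa1a was at 20.8 and 22.3 FPKM at day 0, 84.5 with and 66.9 without ROS at day 4, and 92.7 with and 69.0 without ROS at day 8, a rise of 3.70-fold (log2 difference 1.89 ± 0.22, limma adjusted p = 0.00325). Acaa1b was at 2.03 and 2.40 at day 0, 7.43 with and 5.59 without ROS at day 4, and 75.9 with and 5.31 without ROS at day 8. Its day 8 samples lay 14.3-fold apart, and day 8 against day 0 did not pass (log2 difference 3.14 ± 1.19, limma adjusted p = 0.0829). With ROS as a term in the fit, Acaa1b and Decr2 were also called, for 8 of 9 members. The calls over all 16400 genes rose as well, to 4340 higher and 4356 lower, from 3863 and 3610 with day alone.

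Scp2, whose gene encodes both the thiolase for branched chains and sterol carrier protein 2 (chr4:107716444-107791104, minus strand), was the highest member in every time course sample. It went from 40.6 and 35.7 FPKM at day 0 to 274 with and 242 without ROS at day 4, and to 217 with and 116 without ROS at day 8. The peak therefore fell at day 4 in both arms. The day 4 rise was 6.75-fold (log2 difference 2.75 ± 0.32, limma adjusted p = 0.00400) and the day 8 rise 4.17-fold (limma adjusted p = 0.00726). The representative transcript is the long form, which shares exons with the short sterol carrier form, and these cannot be told apart here.

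The accessory genes moved least. Decr2, the reductase needed for unsaturated chains (chr17:26218156-26227109, minus strand), was at 9.19 and 10.1 FPKM at day 0, 13.6 with and 11.3 without ROS at day 4, and 15.6 with and 12.7 without ROS at day 8. Crot, which makes carnitine esters of medium chains for export (chr5:8966048-8997146, minus strand), was at 11.5 and 9.99 at day 0, 16.3 and 16.4 at day 4, and 14.0 and 13.1 at day 8, with and without ROS in that order. Decr2 missed the threshold at day 8 (1.46-fold, limma adjusted p = 0.0602), and so did Crot (1.26-fold, limma adjusted p = 0.121), while Crot passed at day 4 (1.52-fold, limma adjusted p = 0.0311).

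**Figure D1:**
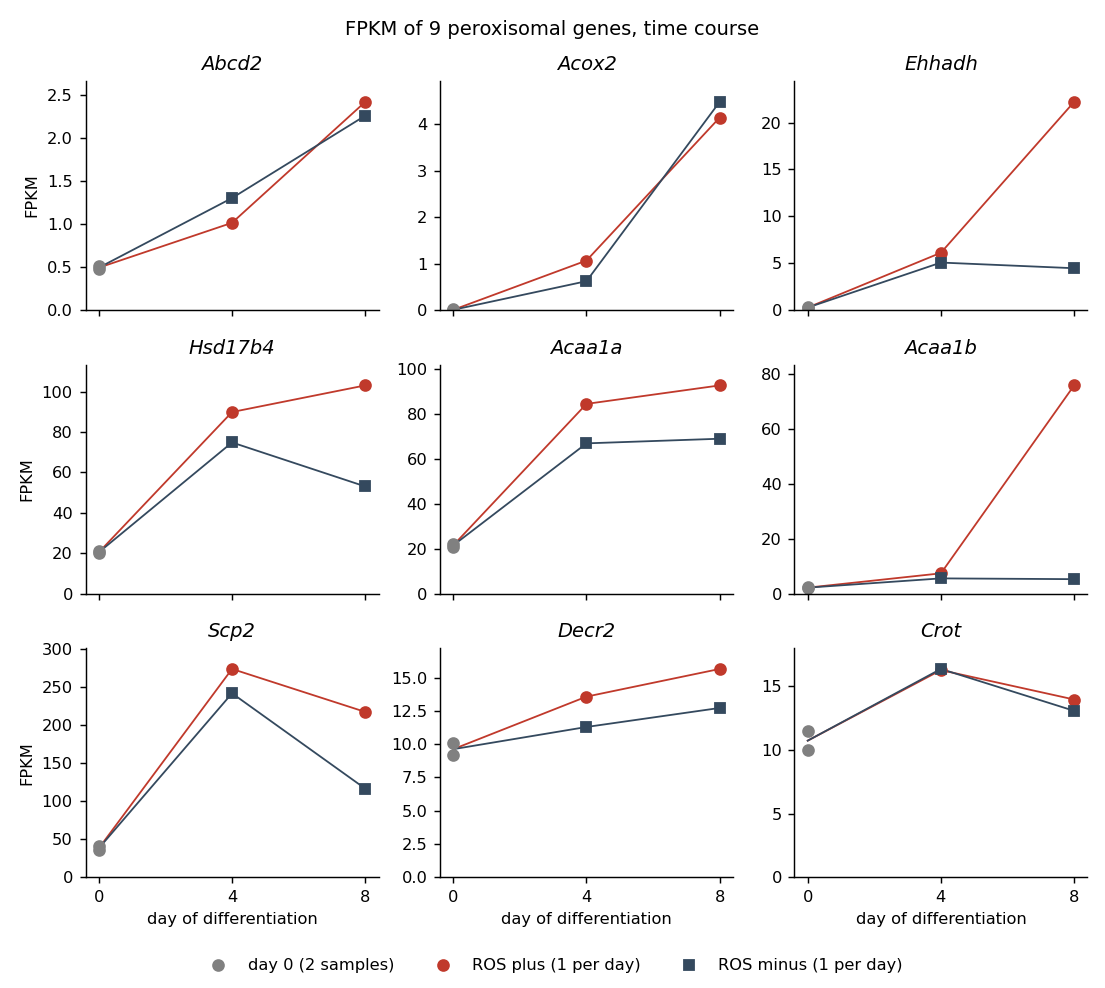
Each panel plots the FPKM of 1 gene (y axis, from 0) against the day of differentiation (x axis). Grey points are the 2 day 0 samples, red circles and dark squares the single samples with and without ROS, and lines join the day 0 mean to them. Ehhadh and Acaa1b reach 22.2 and 75.9 at day 8 with ROS and stay at 4.47 and 5.31 without it.

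At day 4, 7 of 9 members were higher by limma, namely the 6 above and Crot, with a median of 1.80 on the log2 scale, against 19.8% of all genes tested called higher. Acaa1b (limma adjusted p = 0.362) and Decr2 (limma adjusted p = 0.180) did not pass. Without 1 or the other day 0 sample, only Acaa1a, Acox2 and Abcd2 were called at day 8, and 2 members at day 4. Adipocyte markers moved with these changes. The 10 genes, in which Fabp4 dominates, summed to 274 and 276 FPKM at day 0 and to between 10857 and 38214 later, and the part of a larger share of adipocytes in the members' rise was not tested. In bulk RNA, more cells of a type and more RNA per cell cannot be told apart.

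Genes around the route were measured with it. Of the 41 other peroxisomal matrix and membrane enzymes tested of 47 in the files, 31 rose and 2 fell at day 8 by limma. Acsl1, which activates long chain fatty acids, rose 30.6-fold, Ephx2, an epoxide hydrolase, 24.2-fold and Nudt7, a coenzyme A diphosphatase, 21.4-fold. Far1 and Agps, which make ether lipids, fell by 2.20 and 0.68 on the log2 scale. Gnpat, another gene of ether lipid synthesis in this list, rose 4.50-fold (limma adjusted p = 0.00156). Fis1, a fission factor, differed by -0.28 (limma adjusted p = 0.250). Of 16 peroxins, the assembly factors of the organelle, 15 rose, led by Pex11a (19.9-fold), Pex16 (7.70-fold) and Pex11c (7.62-fold). Pex5, the receptor that imports most matrix enzymes, missed the threshold (1.63-fold, limma adjusted p = 0.0787).

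Of 18 mitochondrial β-oxidation genes, 16 rose and 1 fell at day 8. Echs1 rose 8.41-fold and Acadm 8.40-fold, Slc25a20 2.91-fold and Etfdh 1.94-fold. Cpt1a, the liver-type carnitine palmitoyltransferase, fell by 0.69 on the log2 scale, and Cpt1b, its muscle and brown fat form, differed 8.97-fold without passing (limma adjusted p = 0.0720). The median log2 difference was 2.21 for these genes, 1.90 for the other peroxisomal enzymes and 1.62 for the peroxins, beside 2.04 for the 9 members. Without 1 or the other day 0 sample, 16 and 14 of the other peroxisomal enzymes, 6 and 8 of the peroxins and 5 of the mitochondrial genes were called higher.

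Among the receptors and their coactivator, 6 of 7 rose at day 8 by limma. Pparg stood at 18.9 and 19.3 FPKM at day 0 and rose 9.36-fold, Ppara at 0.0743 and 0.0631 and rose 28.7-fold, and Ppargc1a rose 20.1-fold. Rxra and Rxrb rose 2.46-fold and 2.65-fold, Rxrg was listed at 0 in both day 0 samples and at 13.5 and 15.1 at day 8 with and without ROS, and Ppard did not pass (1.09-fold, limma adjusted p = 0.685).

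The effect of ROS could be compared between single samples, so folds are descriptions and the limma fit had 1 residual degree of freedom, from the day 0 pair, with single samples assumed to vary like it. At day 8, Acaa1b was 14.0-fold and Ehhadh 4.88-fold higher with ROS, and these 2 of 9 members passed 2-fold, as 2.9% of all genes did. Hsd17b4 was 1.94-fold, Scp2 1.87-fold and Acaa1a 1.34-fold higher. Decr2 (1.23-fold), Crot and Abcd2 (both 1.07-fold) and Acox2 (0.926-fold) stood near the level without ROS. The limma fit called 0 genes, with a smallest adjusted p of 0.0972, which Acaa1b and Ehhadh shared, and 5011 genes had an unadjusted p under 0.05, 4 members among them. With a minimum FPKM of 1, 163 genes were called higher and 732 lower, including Acaa1b and Ehhadh (limma adjusted p = 0.0466).

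All genes together had a median of -0.20 on the log2 scale in this comparison, so values relative to the bulk of genes are larger. After scaling the samples to equal medians, Hsd17b4 and Scp2 also passed 2-fold, making 4 of 9, and the Acox2 difference turned from -0.11 to 0.09. The scaling moved this difference upward for genes in general, so the 2.9% of all genes given above does not belong to this count. The share of all genes under this scaling was not counted, so 4 of 9 has no background to be read against. Cell type markers moved with ROS at day 8 as well. The adipocyte markers summed to 38214 FPKM with and 10857 without ROS, the 6 preadipocyte markers to 139 with and 571 without, and the 7 beige or brown markers to 376 with and 90.6 without. Ly6a alone stood at 108 with and 495 without ROS. The part of these in the ROS differences was not tested.

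At day 4, none of the 9 members passed 2-fold with ROS, as 1.1% of all genes did, and their folds lay between 0.795 for Abcd2 and 1.61 for Acox2. The fit called 0 genes (smallest limma adjusted p = 0.417), and 1862 genes but none of the members had an unadjusted p under 0.05. The ROS effect at day 8 exceeded that at day 4 by 3.41 ± 0.25 on the log2 scale for Acaa1b and by 2.02 ± 0.16 for Ehhadh, the 2 members past a difference of 1, as 3.23% of all genes were. This difference did not pass for any gene (smallest limma adjusted p = 0.256, shared by Acaa1b and Ehhadh, and 2763 genes with an unadjusted p under 0.05). The arms can also be read from day 4 to day 8. With ROS, the single day 8 sample was above that of day 4 by 3.34 for Acaa1b and 1.84 for Ehhadh on the log2 scale, and without ROS the differences were -0.07 and -0.18. Acox2 was higher at day 8 than at day 4 in both arms, by 1.86 with and 2.66 without ROS.

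**Figure D2:**
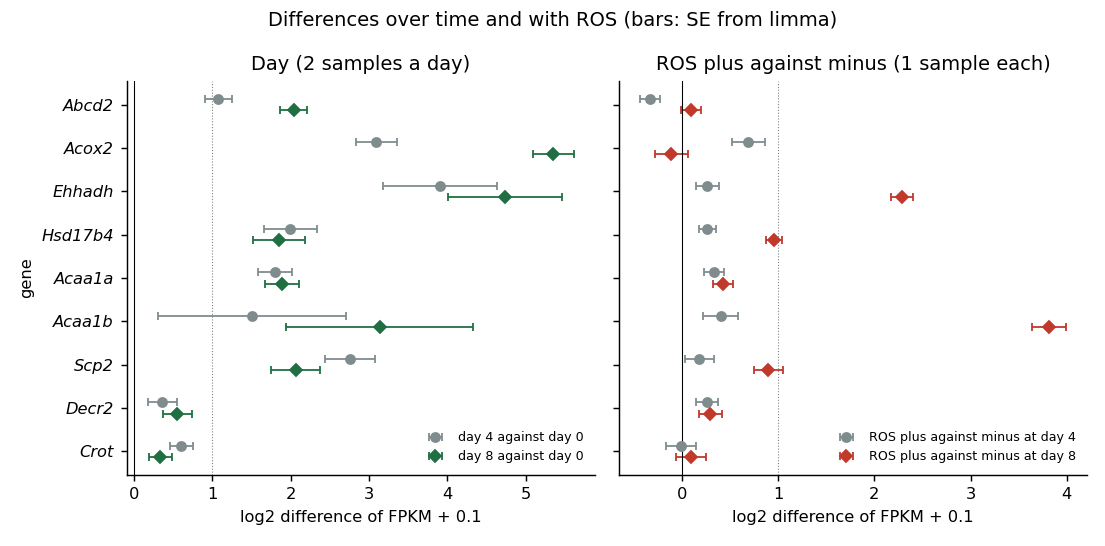
Points give log2 differences of FPKM + 0.1 (x axis) for each gene (y axis), with SE from limma as bars. The left panel sets days 4 and 8 against day 0, and the right panel sets ROS plus against minus at each day, with dotted lines at 2-fold. In the right panel at day 8, Acaa1b at 3.81 and Ehhadh at 2.29 stand to the right of the other 7 genes.

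Of the related lists, 8 of 18 mitochondrial β-oxidation genes, 9 of 41 other peroxisomal enzymes, 0 of 16 peroxins and 1 of 7 receptors passed 2-fold higher with ROS at day 8. Under equal medians these counts were 12, 12, 2 and 1, again with no share of all genes to set them against. Cpt1b was 11.7-fold higher, Ephx2 6.24-fold, Acadm 2.77-fold and Acsl1 2.42-fold. Ppara stood at 9.77 FPKM with and 2.28 without ROS, and Pparg at 139.6 with and 231 without. The median ROS difference was 0.94 for the mitochondrial genes, 0.47 for the peroxins, 0.43 for the members and 0.36 for the other peroxisomal enzymes.

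The ratio of the near-identical thiolases within a library does not depend on scaling between libraries. Acaa1b stood at 0.0976 and 0.108 of Acaa1a at day 0, at 0.0880 with and 0.0836 without ROS at day 4, and at 0.0770 without ROS at day 8. These 5 libraries thus held a near-constant ratio. How reads that match both genes were divided is not stated, and their part in the ratio was not tested. In the day 8 library with ROS it was 0.819. Among transduced libraries the WT A and WT B ratios were 0.734 and 0.881, those of S265A and S265D were 0.462 and 1.65, and that of S265D-H1120Y was 0.274, so that Acaa1b exceeded Acaa1a in the S265D library alone. All 6 differentiated libraries labelled with ROS at day 8 had a higher ratio than the 5 others.

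**Figure D3:**
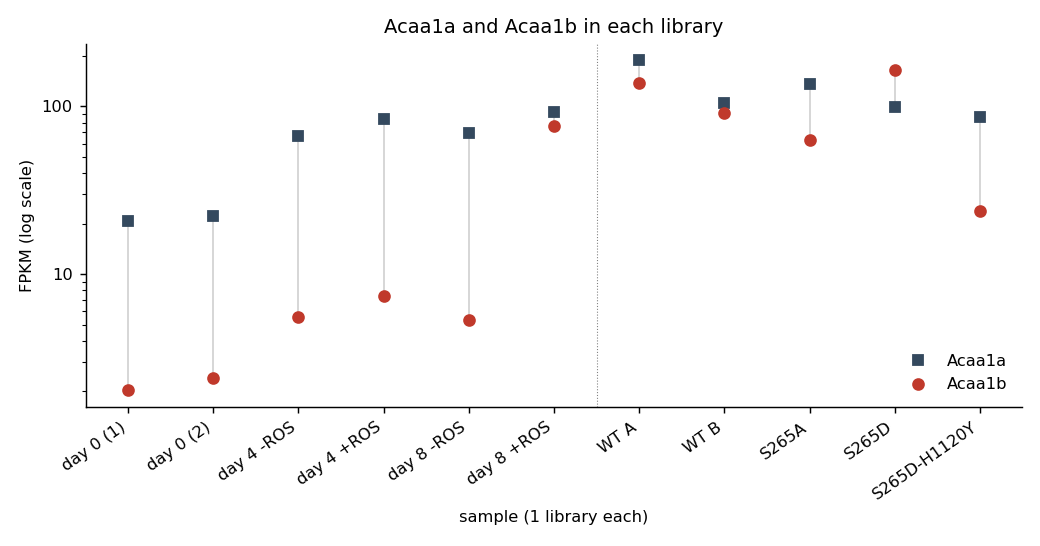
FPKM on a log scale (y axis) of Acaa1a (squares) and Acaa1b (circles) in each of the 11 libraries (x axis), joined by a grey line. The gap closes in the day 8 library with ROS, where Acaa1b is at 0.819 of Acaa1a, and inverts in S265D, where the ratio is 1.65.

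The transduced samples address whether Ser265 and the catalytic histidine of JMJD1A bear on gene expression in beige cells. The 2 WT samples differed widely from each other, and every comparison with them carries that spread. WT B was at least 2-fold below WT A for 3 of 9 members, as it was for 8.9% of all genes. Ehhadh was at 39.0 FPKM in WT A against 6.84 in WT B, Hsd17b4 at 102 and 30.2, and Abcd2 at 19.5 and 5.94. Decr2 went the other way, from 8.49 in WT A up to 18.6 in WT B, and was the 1 member of 9 at least 2-fold higher in WT B, as 13.1% of all genes were. In all, 22.0% of 16402 genes lay at least 2-fold apart. Preadipocyte markers summed to 147 FPKM in WT A against 569 in WT B, and beige or brown markers to 315 against 108. Adipocyte markers summed to 16672 against 30537, mostly from Fabp4 at 12393 in WT A and 26902 in WT B. Lpl was also higher in WT B, whereas all the other adipocyte markers were higher in WT A. Cd68 stood at 5.00 in WT A and 16.6 in WT B. The part of this in the WT difference was not tested.

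**Figure D4:**
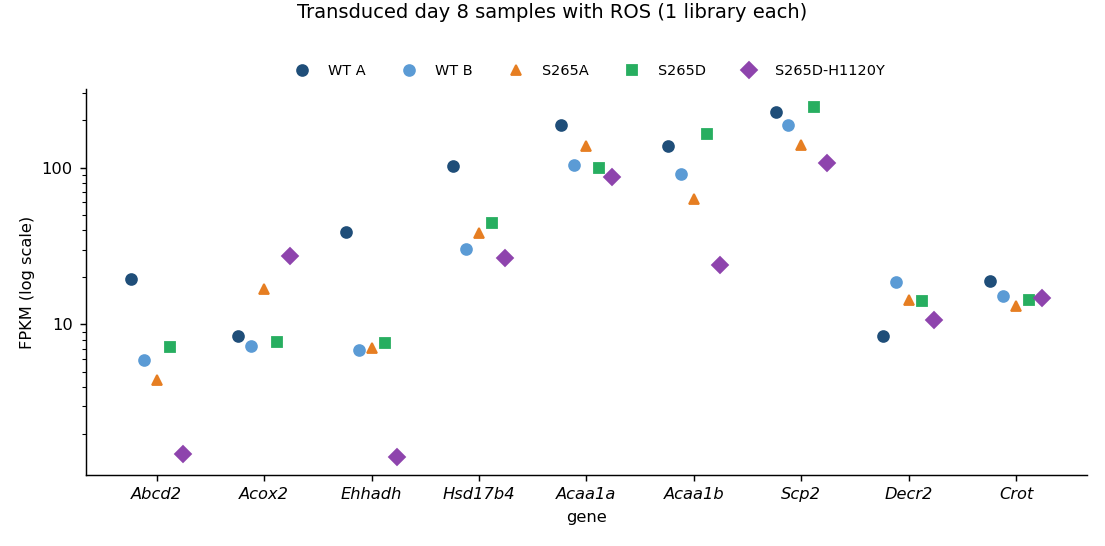
FPKM on a log scale (y axis) of the 9 genes (x axis) in the 5 transduced libraries, 1 point each. WT A stands apart from WT B for Ehhadh (39.0 and 6.84), Hsd17b4 (102 and 30.2) and Abcd2 (19.5 and 5.94), and S265D-H1120Y is lowest for Acaa1b, Ehhadh and Abcd2 and highest for Acox2.

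Against the mean of both WT samples, S265A was at least 2-fold lower for 2 of 9 members, Ehhadh (7.06 FPKM in S265A) and Abcd2 (4.45), as 2.52% of all genes were, and at least 2-fold higher for 1, Acox2 (16.7), as 2.63% of all genes were. Ehhadh in S265A was 0.181 of WT A but 1.03 of WT B, and Abcd2 was 0.229 of WT A but 0.748 of WT B. Neither of these 2 genes was thus 2-fold below WT B. Hsd17b4 at 38.5 lay between both WT samples, as did Acaa1a at 137. Without WT A, the S265A difference on the log2 scale was 0.0439 for Ehhadh and 0.349 for Hsd17b4. Without WT B, these differences were -2.45 and -1.41. Acaa1b (63.3 in S265A, 138 and 91.7 in WT A and WT B), Scp2 (139.9, 227 and 186), Crot (13.2, 19.0 and 15.1) and Abcd2 lay below both WT samples. Acox2 lay above both, at 16.7 against 8.49 and 7.26, and Decr2 at 14.3 lay between them. The limma fit called 0 genes at 1 residual degree of freedom, from the WT pair, and 107 genes but none of the members had an unadjusted p under 0.05.

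For S265D, none of the 9 members was at least 2-fold higher than the WT mean, as 3.4% of all genes were, and 1, Ehhadh (7.58 FPKM), was at least 2-fold lower, as 1.59% of all genes were. Ehhadh in S265D was 0.194 of WT A and 1.11 of WT B. Acaa1b at 164 and Scp2 at 244 were above both WT samples, Acaa1b by 1.19 and 1.79 times. Acaa1a at 99.6 and Crot at 14.3 lay below both, and the other 5 members lay between them. The fit called 0 genes, and 99 genes but none of the members had an unadjusted p under 0.05.

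S265D-H1120Y differed from S265D for more members. It was at least 2-fold lower for 4 of 9, as 6.04% of all genes were, and at least 2-fold higher for 1 of 9, as 3.71% of all genes were. Acaa1b stood at 164 FPKM in the S265D library and 23.9 in the S265D-H1120Y library (6.86-fold lower). Ehhadh stood at 7.58 and 1.42 (5.04-fold lower), Abcd2 at 7.19 and 1.5 (4.54-fold lower) and Scp2 at 244 and 108 (2.27-fold lower). Acox2 was at 7.73 in S265D and 27.2 in S265D-H1120Y (3.49-fold higher). Hsd17b4 (44.6 and 26.4), Acaa1a (99.6 and 87.0), Decr2 (14.0 and 10.6) and Crot (14.3 and 14.7) stayed within 2-fold. Of the 5 transduced libraries, S265D-H1120Y had the lowest value for Abcd2, Ehhadh, Hsd17b4, Acaa1a, Acaa1b and Scp2 and the highest for Acox2. No gene passed (limma, smallest adjusted p = 1), and 187 genes had an unadjusted p under 0.05, with Acaa1b and Acox2 among them.

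The differences of Ehhadh (-2.33 on the log2 scale) and Abcd2 (-2.18) between these libraries were close in size to those between WT B and WT A (-2.49 and -1.69), whereas those of Acaa1b (-2.78 against -0.59) and Acox2 (1.80 against -0.22) were larger than the WT pair's. The S265D-H1120Y library held 16471 FPKM of adipocyte markers against 26344 in S265D, and 168 against 325 of beige or brown markers. Preadipocyte markers summed to 213 against 478, mostly from Ly6a at 165 against 417, and Cd34 alone of them was higher (11.8 against 9.35). Cd68 stood at 21.7 against 10.35, and the part of all these markers in the difference was not tested. In the same comparison, 7 of 42 other peroxisomal enzymes, 3 of 18 mitochondrial β-oxidation genes, 1 of 7 receptors and 0 of 16 peroxins were at least 2-fold lower, and with a pseudocount of 1 the counts of other enzymes and receptors were 4 and 0. Nudt7 stood at 37.1 FPKM in S265D and 7.47 in S265D-H1120Y, Ephx2 at 92.9 and 23.4, Cpt1b at 15.0 and 4.36, and Ppara at 5.69 and 2.39.

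**Figure D5:**
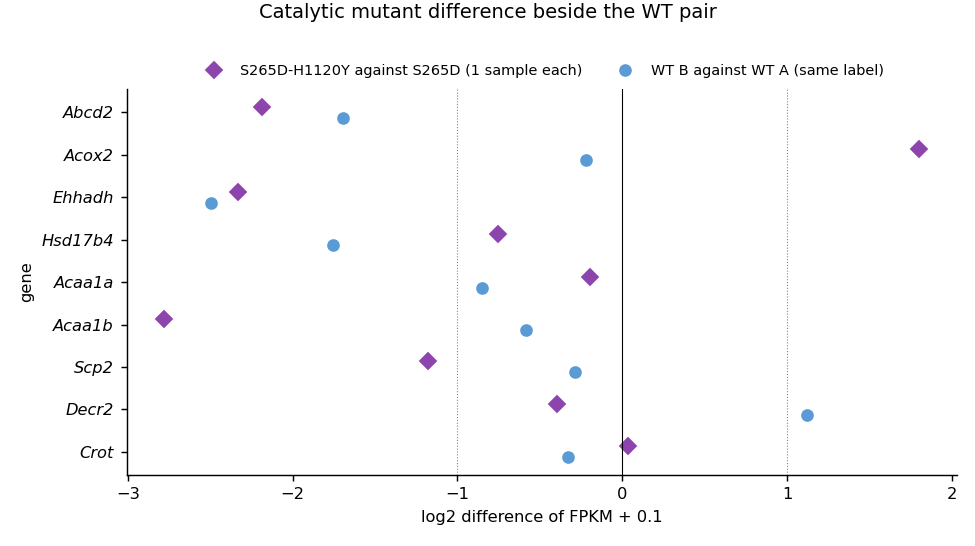
Log2 differences of FPKM + 0.1 (x axis) for each gene (y axis), with diamonds for S265D-H1120Y against S265D and circles for WT B against WT A, and dotted lines at 2-fold. For Acaa1b the diamond is at -2.78 and the circle at -0.59, while for Ehhadh they lie at -2.33 and -2.49.

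How alike the members were was described over the 11 samples, which share days and treatments. The Pearson correlation of each member's log2(FPKM + 0.1) with the mean of the other 8 members (z-scored) was 0.95 for Acaa1a, 0.94 for Ehhadh and 0.89 for Scp2, between 0.63 and 0.81 for Hsd17b4, Acox2, Crot, Abcd2 and Acaa1b, and 0.36 for Decr2. Among the 13615 genes that reached an FPKM of 1 in some sample, the 5 nonmembers most like the members' mean included Ephx2 (r = 0.99), Rnf125 (r = 0.99), Chpt1 (r = 0.99) and Aatk (r = 0.98). Chpt1, a cholinephosphotransferase, stood at 3.76 and 2.91 FPKM at day 0, at 63.4 with and 35.8 without ROS at day 8, and at 90.4 in WT A, the highest of all samples, as for Ephx2 at 149.6.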

How the data were processed

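RNA of 11 im-scWAT samples was made into TruSeq libraries and sequenced on an Illumina instrument. The authors aligned the reads with BWA to UCSC gene transcripts and to mm9, realigned them locally and computed strand-specific values per transcript. The authors deposited FPKM per transcript in 110838 sense and antisense rows per sample, together with its log10. Further deposited columns hold its log2, and mapped bases per transcript, a measure of signal or coverage. Because FPKM are no counts, count models were left out, and the depth was taken from the mapped bases.

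For each of 29955 symbols the sense row marked as representative was used. limma (version 3.58.1, R 4.3.3) was fitted to log2(FPKM + 0.1) over genes that reached an FPKM of 0.1 in any sample of the fit, with Benjamini-Hochberg adjustment over all of these genes, a threshold of 0.05 and 2-fold as the limit for single samples. A fold on this scale understates the change of low genes. Days were compared with day as the only term (3 residual degrees of freedom). The ROS comparisons used 5 groups of the 6 time course samples, and the transduced comparisons the 5 transduced samples, with 1 residual degree of freedom each. Nothing states that samples were separate cultures, so p-values measure the spread between these samples, which may be technical. The fits were tested on simulated data. Promoters were taken from RefSeq on GRCm38.p6, coding sequences from the mm9 annotation (GENCODE), and no coordinate was converted between builds.

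Alternatives were another pseudocount (1 or 0.01), a minimum FPKM of 1 or none, the transcript with the highest mean or the sum over transcripts, equal medians, ROS as a term, and leaving out samples. Named genes were all members, every receptor gene, the 3 largest and 3 smallest differences at day 8 in each other list, the 5 genes most like the members' mean, and Kdm3a. Some genes that this rule names are not reported here. Other genes named with values in the text (marker genes and Gnpat) were chosen after their values were seen. The members and lists were chosen with earlier results of these data known. Eci3 and Pex2 were not matched to a row and are not analysed here.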

Additional observations from a re-analysis of the deposited data

Results flagged for a closer look

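A signal appeared on the antisense strand of Acaa1a, in rows that the comparisons do not use. The antisense FPKM was 0.115 and 0.0854 in the day 0 samples. It was higher in all 9 later samples, from 0.210 in the day 8 sample without ROS to 1.57 in WT A and 1.22 in S265A. It amounted to between 0.282% and 0.912% of the sense FPKM of the same sample. Sense Acaa1a was also higher in all 9 later samples, and its part in the antisense values was not tested. Antisense Scp2 likewise lay above both day 0 samples in all 9 later samples, at no more than 0.2585 FPKM.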

How the results depend on the processing

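The count of members called higher at day 8 (6) ranged from 3 to 8 when 1 time course sample at a time was left out, and that at day 4 (7) from 2 to 8. Both counts were lowest without a day 0 sample, and the cause was not tested. The count of all genes called at day 8 (3863 higher and 3610 lower) was 1432 and 715 without day 0 replicate 1 and 1477 and 849 without replicate 2, and at day 4 (3245 and 2731) it was lowest at 918 and 489 without day 0 replicate 2. Under equal medians, 4 members instead of 2 were at least 2-fold higher with ROS at day 8. So were 12 instead of 8 mitochondrial genes and 12 instead of 9 other peroxisomal enzymes. The share of all genes that were 2-fold higher under equal medians was not counted. Acox2 was at 0.0856 on the log2 scale at day 8, and Crot at 0.0345 at day 4. With ROS as 1 term over days 4 and 8, the day 4 count was 2 instead of 0, because the term averages both days. Acaa1b was then at 2.11 instead of 3.81 and Ehhadh at 1.28 instead of 2.29 (limma adjusted p = 0.288 for both), with Acox2 at 0.290, Abcd2 at -0.118 and Crot at 0.0430. With this term, 1 of the other peroxisomal enzymes and 1 of the mitochondrial genes passed 2-fold. Over all settings, 90 counts of members stayed within 1.5 times of the value reported and 10 did not.

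Against WT, the S265A and S265D differences were also taken without WT A and without WT B. In these fits the S265A difference lay between -0.456 and 0.396 for Acaa1a, -2.45 and 0.0439 for Ehhadh, -1.41 and 0.349 for Hsd17b4, and -0.374 and 0.748 for Decr2. The S265D difference lay between -0.134 and 0.0894 for Acox2, -2.35 and 0.146 for Ehhadh, -1.20 and 0.560 for Hsd17b4, -0.405 and 0.718 for Decr2, and -1.42 and 0.270 for Abcd2, the sign changing with the WT sample in each. Adding the day 0 pair to the transduced fit called 0 genes (smallest limma adjusted p for S265D-H1120Y = 0.842). Leaving out a day 0 sample left no residual degree of freedom for ROS, so those are values with no test. The alternatives for the WT pair were chosen after seeing the data and left its count of 3 within 1.5 times. No paired analysis was run, because the groups compared share fewer than 2 replicate numbers. A block for the time course arms labelled with and without ROS, day 0 included, was not fitted. Depth limits Acox2 most, with 0 mapped bases in 1 day 0 sample.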

Other observations

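Antisense values of the other members stayed below 0.358 FPKM in every sample. For Acaa1b they reached 2.79% of the sense FPKM in 1 day 0 sample, where the sense level was low. The second transcript of Crot in the files had 21.7% to 29.1% of the FPKM of the representative transcript in every sample, so summing both would leave its pattern over the samples nearly as it is.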
